A study of Mus musculus with 63 samples.

Results

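The 158 genes whose symbols run from Zfp600 to Zfp999 were followed through 47 RNA-seq libraries of Chaserr and Chd2 mutant mice and of an RNA immunoprecipitation (RIP). They were taken by symbol alone from tables of 24990 rows, and were set beside the 221 other Zfp genes and 39 Zbtb genes. Chaserr is a long noncoding RNA transcribed just upstream of Chd2, which encodes a chromatin remodeller. The groups were Chaserr+/- and WT whole embryos of E9.5 and of E13.5, adult brains and mouse embryonic fibroblasts (mEFs, primary cultures of E13.5 embryos without head and liver), and Chaserr-/-, Chd2m/m and Chaserr-/- Chd2m/m mEFs, each beside WT mEFs of its own set. All groups had 3 libraries, except that Chd2m/m mEFs had 2. The RIP was made in Neuro2a cells, a mouse neuroblastoma line, with 2 libraries each of the CHD2 antibody, the IgG control and the input. Chaserr was deleted over its promoter and first exon, in 2 mouse lines used interchangeably, and the m allele of Chd2 is a frameshift deletion of 2 bases in exon 3, so that its RNA can still be counted. The guide RNAs were injected into CB6F1 Ola HSD mice, and the lines were then backcrossed to C57BL/6 Ola HSD. In the set of Chaserr-/- Chd2m/m mEFs, the titles of the mutants name a Chd2+/m cross and those of their WT name a cross that also carries Chaserr+/-, so that a difference between the crosses and an effect of the genotype cannot be told apart.

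Zfp is the mouse name for zinc finger protein. Most such genes encode proteins of the Cys2His2 class, in which each finger is a short loop folded around a zinc ion, and arrays of fingers read DNA bases in a row. Many carry a KRAB domain at the start of the protein, which recruits the corepressor TRIM28, which in turn brings the H3K9 methyltransferase SETDB1 and heterochromatin proteins to the bound site. KRAB zinc finger genes lie in clusters made by repeated gene duplication, and several are known to silence endogenous retroviruses. The numbers in a symbol are a running register, so the 158 genes share a class of protein but not one function.

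A coding model was found for 153 of the 158 genes in the annotation of mm9, the genome build of the coordinates given here. Of these, 143 encoded at least 1 Cys2His2 finger, with a median of 11 and at most 33. A KRAB core was found in 65 of the 153 (42.5%), as against 137 of 19620 genes with a coding model (0.698%). The stretch ACTGGNGANAANCCNTA, which encodes most of the linker between neighbouring fingers, was read on the coding strand only and lay in 70 members (45.8%) and in 226 of all 19620 genes (1.15%). A missing match means only that these letters were not in the model. The members lay mostly in a few chromosomes, with 35 on chromosome 7, 21 on chromosome 17, 16 on chromosome 8 and 13 on chromosome 4.

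Finger repeats are shown for 4 members, an identical pair, in which a read fits more than 1 gene, and for comparison 1 repeat each of Zfp760 and of Zfp961, which had whole counts. Each is 1 finger with its linker, 84 bases long, from the mm9 genome, and the capitals mark the linker-coding letters. Zfp808 finger 3 lies in its coding sequence at chr13:62272889-62272972 (plus strand), Zfp934 finger 2 at chr13:62619628-62619711 (minus strand), Zfp760 finger 2 at chr17:21859524-21859607 (plus strand) and Zfp961 finger 6 at chr8:74492393-74492476 (plus strand).
Zfp808: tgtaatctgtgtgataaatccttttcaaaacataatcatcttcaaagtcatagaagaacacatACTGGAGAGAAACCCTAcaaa
Zfp934: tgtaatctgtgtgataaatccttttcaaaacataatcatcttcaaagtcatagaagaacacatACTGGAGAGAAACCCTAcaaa
Zfp760: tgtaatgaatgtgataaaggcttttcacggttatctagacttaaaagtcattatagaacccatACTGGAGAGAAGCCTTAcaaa
Zfp961: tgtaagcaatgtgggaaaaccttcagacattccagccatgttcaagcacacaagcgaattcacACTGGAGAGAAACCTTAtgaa
The repeats of Zfp808 and Zfp934 were the same in 84 of 84 bases, with a GC content of 32.1%. That of Zfp760 matched Zfp808 in 61 of 84 bases (72.6%) and had a GC content of 34.5%. The repeat of Zfp961 had a GC content of 42.9%, although all 4 encode the same kind of finger. Over all members with such a repeat, 134 genes held 1239 repeats, of which 1219 differed from each other. A whole repeat was found in more than 1 member for 7 repeats, in 6 members.

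Shared sequence showed in the tables as counts that were not whole. The authors estimated counts with RSEM, which divides a read that fits several genes between them. Zfp808 had a fractional count in 47 of the 47 libraries and Zfp934 in 46, whereas Zfp961 had none in any. Only 62 of the 158 members (39.2%) had whole counts in every library, as against 51.1% of the other Zfp genes, 69.2% of the Zbtb genes and 75% of all rows. Values of members with fractional counts are uncertain in how their reads were divided. Of the members named here, this holds in 21 to 47 libraries for Zfp617, Zfp704, Zfp706, Zfp738, Zfp781, Zfp808, Zfp820, Zfp830, Zfp850, Zfp866, Zfp871, Zfp882, Zfp932, Zfp933, Zfp934, Zfp935, Zfp942, Zfp943, Zfp945, Zfp946, Zfp950, Zfp956, Zfp971, Zfp972, Zfp979, Zfp982, Zfp983, Zfp984 and Zfp992, and in 1 to 16 libraries for Zfp600, Zfp641, Zfp663, Zfp760, Zfp819, Zfp827, Zfp941, Zfp948 and Zfp963.

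The members were poor in G and C. The median GC content of their transcripts was 44.6% (quartiles 39.2% and 51.1%, 153 genes), against 47.8% for the other Zfp genes, 51.5% for the Zbtb genes and 49.9% for all rows. When all genes were cut into 5 equal classes by GC content, the lowest class, under 44.1%, held 73 members (47.7%) and the highest class 23. Members with a KRAB core had a median of 42.2% and those without one a median of 46.6%. The members thus ran from 34.4% to 64.9%.

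Most members were expressed, at low levels. In FPKM, a level per length that can be set side by side between genes, 136 members (86.1%) reached a mean of 1 in WT E9.5 embryos, 142 (89.9%) in WT E13.5 embryos and 132 (83.5%) in WT brains, whereas 48.7%, 55.5% and 53.5% of all rows did. In the WT mEFs of the 4 sets 99 to 124 members did (62.7% to 78.5%), and 95 (60.1%) in the RIP input. The median level of those members was 5.95 FPKM in E9.5 embryos, where it was 11.8 FPKM for all rows at 1 or more, and 4.03 FPKM against 10.0 FPKM in brains. A level of 10 FPKM was reached by 41 of the 158 members at E9.5, 40 at E13.5 and 19 in brains. Of all rows, 26.8%, 30.9% and 26.8% reached it in the same order. Most members were thus detected in embryos, and the median of those at 1 FPKM or more lay below that of all such rows. In whole tissue and in mixed cultures, fewer cells that express a gene and less RNA per cell cannot be told apart.

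**Figure D1:**
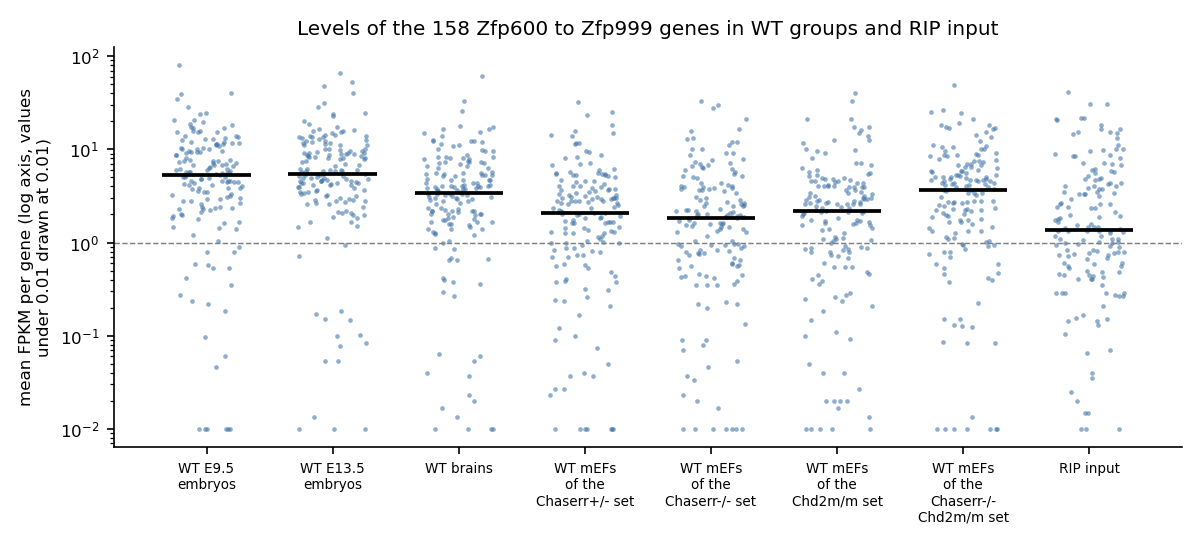
Mean FPKM (log axis) of each of the 158 members in the WT groups and the RIP input, 1 point per gene, with the median as a bar and 1 FPKM as a dashed line. The median was 5.28 FPKM at E9.5, 5.43 FPKM at E13.5 and 3.4 FPKM in brains, and lay lower in 3 of the 4 sets of WT mEFs.

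Among the 10 members with the highest mean level, Zfp664 led in embryos, with 78.9, 80.9 and 79.8 FPKM at E9.5 and 64.2, 67.5 and 66.4 FPKM at E13.5. Its level in the 3 brains was 18.4, 20.1 and 39.4 FPKM, and its mean in WT mEFs ran from 12.9 to 19.1 FPKM. The third brain library stood above the other two, and it was made with the TruSeq kit, like all embryo libraries, whereas the other two brains and all mEFs were made with the Lexogen SENSE kit. Zfp971 showed the same split more strongly, with 4.21, 3.57 and 41.4 FPKM in the 3 brains and 27.8, 22.5 and 22.7 FPKM in the E9.5 embryos. In these genes a difference between brains and embryos and one between kits cannot be told apart.

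Zfp706, which encodes a small protein with a single finger, had 60.9, 61.4 and 60.7 FPKM in brains, 40.5, 38.3 and 40.7 FPKM at E9.5 and means of 29.7 to 48.7 FPKM in mEFs. Zfp637 had 17.8, 21.7 and 19.5 FPKM at E9.5 and 52.2, 44.5 and 45.8 FPKM at E13.5. Zfp740 had 33.7, 33.8 and 35.8 FPKM at E9.5 and a mean of at most 5.60 FPKM in each set of WT mEFs. The order of the leading members thus differed between the groups. All embryos were made with the TruSeq kit and all mEFs with the SENSE kit. For every level set side by side between embryos and mEFs here, tissue and kit cannot be told apart. Zfp638, Zfp639, Zfp932, Zfp703 and Zfp617 complete the 10.

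Members with a known role were mostly at moderate levels. Zfp809, a KRAB protein that recruits TRIM28 to retroviral DNA, lay between 5.44 and 11.2 FPKM in every WT tissue and mEF group. Zfp932, which binds endogenous retroviruses, had means of 28.1 FPKM at E9.5, 24.4 FPKM at E13.5 and 17.7 FPKM in brains. Zfp703, a corepressor of the NET family, was higher in mEFs, at 24.5 to 33.2 FPKM, than in the other WT groups, at 11.2 to 17.2 FPKM. Zfp644, a partner of the H3K9 methyltransferase G9a, had means of 9.43 to 18.7 FPKM in those groups. Zfp711, an X-linked partner of the histone demethylase PHF8, had 5.56 FPKM at E9.5 and 0.167 to 1.44 FPKM in mEFs. Zfp819, which represses retrotransposons, stayed at or under 0.527 FPKM throughout, and Zfp750, a regulator of epidermal differentiation, went from 0.0967 FPKM at E9.5 to 1.66 FPKM at E13.5.

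Between WT E9.5 and WT E13.5 embryos, many members changed. Of 149 tested, 109 differed, 38 higher and 71 lower at E13.5 (adjusted p under 0.05, edgeR's quasi-likelihood test), while 80.4% of all genes tested differed, 42.1% higher and 38.3% lower. Zfp750 had 0.258, 0.309 and 0.449 CPM (counts scaled to a common library total) at E9.5 and 5.57, 4.36 and 3.79 CPM at E13.5, a rise of 3.73 on the log2 scale (SE 0.264, adjusted p = 9.03e-07). Zfp784 (log2 fold change 1.95), Zfp827 (1.68), Zfp641 (1.49), Zfp651 (1.42) and Zfp956 (1.31) also rose, and these 6 genes have GC contents of 50.0% to 58.1%. Their E13.5 values did not overlap with E9.5.

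The members that fell most between these ages included several KRAB genes of chromosome 4. Zfp992 had 42.0, 43.1 and 49.1 CPM at E9.5 and 8.11, 11.8 and 6.95 CPM at E13.5, a log2 fold change of -2.32 (SE 0.168, adjusted p = 1.07e-06, edgeR). Zfp979 (-2.07), Zfp982 (-1.62) and Zfp984 (-1.45) lie on the same chromosome, and Zfp850 (-1.49) and Zfp820 (-1.29) elsewhere. All 6 had a fractional count in at least 28 libraries, and the 5 KRAB genes among them had GC contents of 36.4% to 37.5%. Both ages were made with the TruSeq kit. The median of all members relative to all genes was -0.258, and -0.014 after each library's trend with GC content and length had been taken out. After that correction 52 of 144 members were called higher and 56 lower, beside 80.9% of all genes, and all 12 genes named here stayed past the threshold in their direction.

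Brains were compared with E13.5 embryos by the same test, with the libraries of 2 kits in the brain group. Of 145 members tested 69 differed, 13 higher and 56 lower in brains, as against 71.1% of all genes, 35.2% higher and 35.9% lower. Zfp831 had 0.317, 0.795 and 0.854 CPM in embryos and 29.6, 23.1 and 19.5 CPM in brains, a rise of 5.18 on the log2 scale (SE 0.372, adjusted p = 2.09e-05, edgeR). Zfp941 (1.98), Zfp612 (1.74) and Zfp983 (1.14) rose as well. Zfp972 and Zfp771 passed the test but were high only in the 2 SENSE brains. Zfp972 had 9.09, 9.76 and 2.32 CPM in the brains and 1.97 to 2.56 CPM in embryos, and Zfp771 had 29.5, 27.5 and 9.86 CPM against 8.05 to 9.08 CPM. In the TruSeq libraries alone their log2 fold changes were 0.022 and 0.233.

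Members that fell in brains were led by Zfp663, with 4.12, 3.67 and 4.51 CPM in embryos and 0.085, 0 and 0.063 CPM in brains (log2 fold change -6.12, SE 0.442). Zfp618, which had 28.8, 27.8 and 31.0 CPM in embryos, had 2.72, 1.99 and 1.44 CPM in brains (log2 fold change -3.88). Zfp820 (-2.70), Zfp808 (-2.52), Zfp992 (-2.36) and Zfp750 (-2.33) also fell. In each of the 6 the brain values lay below every embryo value. Zfp820, Zfp808 and Zfp992 are among the members with fractional counts. Leaving out 1 library, 47 to 106 members were called, with 106 without the third brain, the TruSeq one. The shares of all genes called in those fits are not given, so the counts show only that the test depends on single libraries. The TruSeq libraries alone set 1 brain against 3 embryos, and the lone brain is assumed to vary like the embryos. Only log2 fold changes of that fit are therefore given.

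In mEFs, brains and embryos of Chaserr+/- mice, no member passed the test. In E9.5 embryos 0 of 149 members were called (0% of all genes), with 5 at an unadjusted p under 0.05 (3.12% of all genes). In E13.5 embryos it was 0 of 148 (0.0314% of all genes), with 6 at that level (6.34% of all genes), and in mEFs 0 of 135 (0.173%), with 7 (8.36% of all genes). In brains it was 0 of 142 (0%), with 9 at that level (2.47% of all genes). DESeq2 called 0 members in each of the 4 comparisons, beside 0.0345%, 0.132%, 0.745% and 0.00671% of all genes in the same order. The median log2 fold change of members relative to all genes came to 0.014 at E9.5, 0.053 at E13.5 and 0.007 in mEFs, and did not exceed the spread between replicates (SD of 0.0378, 0.0658 and 0.0535). Chd2 had log2 fold changes of 0.66 at E9.5, 0.78 at E13.5, 0.98 in brains and 0.55 in mEFs.

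In brains the median relative to all genes was -0.138, with an SD between replicates of 0.147. Members with a KRAB core had a median of -0.26 (42 of 52 lower) and members with whole counts a median of 0.06. The rank correlation of the change with GC content was 0.806 over the members and 0.34 over all genes, which share the same 6 libraries. Replicate numbers of brains paired Chaserr+/- with WT, and with the replicate block 25 members (20 of them lower) had an unadjusted p under 0.05, with 13.1% of all genes (7.01% lower), and still 0 passed the adjusted threshold. Without both TruSeq libraries, the median was -0.056, it lay between -0.232 and -0.011 leaving out 1 library (-0.011 without the third WT brain), and with the correction for GC content and length it was -0.070. The oligodendrocyte markers summed to 3230 to 6020 FPKM in WT and 2200 to 3280 FPKM in Chaserr+/- brains, and their part in the result was not tested.

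In Chd2m/m mEFs 0 of 139 members were called (0.0145% of all genes), with 4 at an unadjusted p under 0.05 (4.51% of all genes) and 0 by DESeq2 (0.0581% of all genes). With the number that follows the cross in the titles as a replicate block 1 was called, beside 0.719% of all genes, Zfp781 (log2 fold change 0.70, adjusted p = 0.0474, edgeR), named here after its value was seen. Without the block its log2 fold change was 0.15. The median of the members relative to all genes was -0.021, with an SD between replicates of 0.0348. In these cells Chd2 RNA was higher than in WT (log2 fold change 0.67, adjusted p = 0.045, edgeR).

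Among the 7 mutant comparisons, the members' median lay farthest from that of all genes in Chaserr-/- mEFs. In this set Chaserr was at 0 CPM in all 3 mutant libraries and at 6.47, 5.21 and 4.03 CPM in WT, and Chd2 was higher by 1.45 on the log2 scale. Of 158 members, 136 passed the filter on low counts, 100 higher and 36 lower than WT, with a median of 0.486 relative to all genes (SD between replicates 0.178). Still 0 members were called by edgeR (0.118% of all genes). Without adjustment 61 members (44.9%) had a p under 0.05, 51 higher and 10 lower, with 33.9% of all genes (17.7% higher). DESeq2 called 31, 26 of them higher, with 19% of all genes (10.9% higher). Values did not overlap between groups for 71 members (52.2%), 56 of them higher, and for 43.2% of all genes, 21.8% being higher.

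The 8 members with the lowest p were 7 higher and 1 lower, all with an adjusted p of 0.0522 to 0.054 (edgeR), just short of the threshold of 0.05. Zfp760, a KRAB gene of chromosome 17 (21844708 to 21862603), had 3.73, 2.81 and 3.24 CPM in WT and 8.93, 5.72 and 7.56 CPM in Chaserr-/-, a log2 fold change of 1.17 (SE 0.253). Zfp945 had 5.56, 6.04 and 5.31 CPM in WT and 10.9, 10.4 and 9.5 CPM in Chaserr-/- (0.86, SE 0.190). Both had no overlap between groups. Zfp942 had 5.28, 5.52 and 6.68 CPM in WT and 17.0, 8.97 and 11.3 CPM in Chaserr-/- (1.09), and Zfp948 had 17.4, 15.3 and 17.6 CPM and then 43.0, 23.8 and 25.4 CPM (0.87). In both, the first mutant library was the highest.

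Zfp850 (log2 fold change 1.28), Zfp943 (1.27) and Zfp961 (0.93) were the other members with higher values. Zfp961, whose counts were whole in every library, had 8.47, 6.66 and 5.70 CPM in WT and 16.2, 11.2 and 12.6 CPM in Chaserr-/-. The 1 lower member was Zfp628 (chromosome 7), the one among the 8 that is rich in G and C, at 63.9%. It had 19.9, 24.2 and 23.5 CPM in WT and 8.73, 17.1 and 10.6 CPM in Chaserr-/- (log2 fold change -0.88, SE 0.237). Of these 8, Zfp760, Zfp942, Zfp943, Zfp945 and Zfp948 lie on chromosome 17. Among the members with a known role, Zfp809 had a log2 fold change of 0.55 (SE 0.199, adjusted p = 0.0905), Zfp638 of 0.44 (SE 0.161, adjusted p = 0.0935) and Zfp668, a DNA repair factor, of -0.64 (SE 0.175, adjusted p = 0.0542), all by edgeR.

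**Figure D2:**
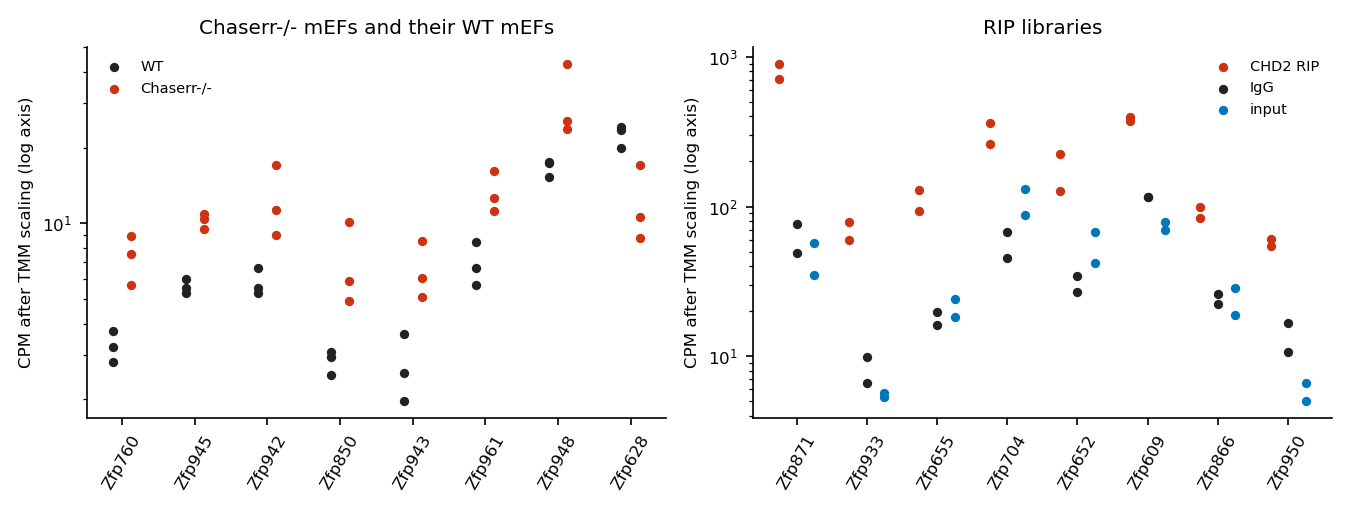
CPM (log axis) in each library for the 8 members with the lowest p in Chaserr-/- mEFs, with WT mEFs beside them, and for the 8 with the lowest p in the CHD2 RIP against IgG, with IgG and input. The 3 Chaserr-/- points of each gene on the left lie on 1 side of its 3 WT points, and the 2 CHD2 points of each gene on the right lie above its IgG and input points.

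The change in Chaserr-/- mEFs ran with GC content. In the lowest GC class the median log2 fold change was 0.75 over 61 members (58 higher) and 0.54 over all genes. In the following classes the medians of members and of all genes were 0.44 and 0.27, then 0.07 and 0.03, then 0.04 and -0.21, and in the highest class -0.35 over 22 members (2 higher) and -0.43 over all genes. The other Zfp genes had medians of 0.72, 0.22, 0.06, -0.21 and -0.62 from the lowest to the highest class. The rank correlation of the change with GC content was -0.77 over the members and -0.719 over all genes. With the trend of each library with GC content and length taken out, the median of members relative to all genes was 0.089, and 21 members (16%) had an unadjusted p under 0.05, with 23.5% of all genes, and 0 members were called (0.792% of all genes). The correction also takes out any change that low-GC genes share, so the trend and such a change cannot be told apart by it. After it, Zfp850 had a log2 fold change of 0.94, Zfp961 of 0.65, Zfp760 of 0.60 and Zfp628 of -0.31.

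**Figure D3:**
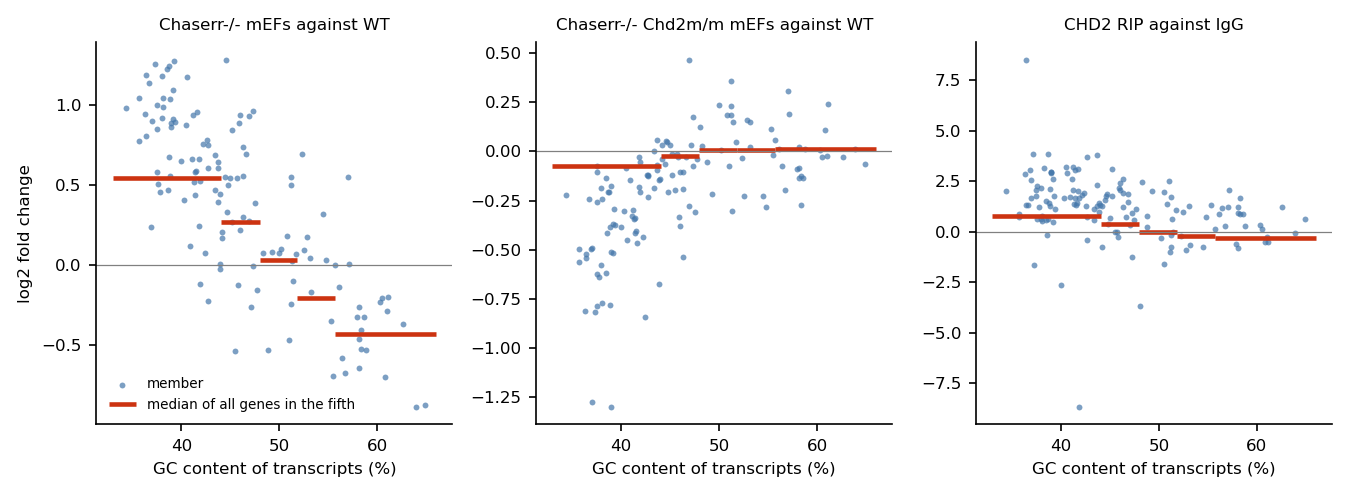
Log2 fold change of each member against the GC content of its transcripts (%) in Chaserr-/- mEFs, Chaserr-/- Chd2m/m mEFs and the CHD2 RIP against IgG, with the median of all genes in each of 5 GC classes as a bar. In the lowest class the members' medians were 0.75, -0.34 and 1.66, and those of all genes 0.54, -0.08 and 0.79.

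Members with whole counts in all libraries had a median of 0.01 in Chaserr-/- mEFs (57 genes, median GC content 50.9%), and those with a fractional count a median of 0.58 (79 genes, 41.9%). Members with a KRAB core had a median of 0.60 (44 of 52 higher), and those without one 0.28. The other Zfp genes had 0.16 and the Zbtb genes -0.06. Fractional counts, a KRAB core and a low GC content thus occurred in much the same members, and their parts in the result cannot be told apart. The first Chaserr-/- library stood apart, with the members at a median of 0.296 above their group mean and at -0.147 and -0.113 in the other two. Without it the median relative to all genes was 0.242 with 4 members called, and without the second Chaserr-/- library 41 were called. The shares of all genes called in those fits are not given, so the counts show only that the test depends on single libraries.

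Other cell types also differed in this set. The summed level of 12 macrophage markers was 654 to 803 FPKM in WT and 424 to 493 FPKM in Chaserr-/-, with 2 called lower, that of 7 skeletal muscle markers was 329 to 444 FPKM and 218 to 251 FPKM, with 1 called lower. That of 6 fibroblast markers was 2420 to 2510 FPKM and 1730 to 2230 FPKM. That of 6 chondrocyte markers was 46.2 to 69.3 FPKM in WT and 17.0 to 43.6 FPKM in Chaserr-/-. None of these markers was at 0 in all libraries, and their part in the result was not tested.

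In Chaserr-/- Chd2m/m mEFs the members lay on the other side of WT. Of 141 tested, 35 were higher and 106 lower, with a median of -0.126 relative to all genes (SD between replicates 0.0636). The other Zfp genes were mostly lower too, 138 of 210. Their median was -0.08, beside -0.14 over members, -0.03 over the Zbtb genes and -0.01 over all genes. Again 0 members were called by edgeR (0.0924% of all genes), with 22 at an unadjusted p under 0.05 (15.6%), all lower, beside 9.89% of all genes (5.73% lower). DESeq2 called 2 (1.58% of all genes), Zfp738 and Zfp808. Zfp738 had 28.5, 25.1 and 26.3 CPM in WT and 18.1, 18.9 and 12.6 CPM in the mutant, a log2 fold change of -0.68 (SE 0.157, adjusted p = 0.144 by edgeR). Zfp808, whose repeat shown above is shared with Zfp934, had 43.1, 49.8 and 30.7 CPM in WT and 22.7, 31.6 and 15.6 CPM in the mutant (log2 fold change -0.81, SE 0.240, adjusted p = 0.257 by edgeR). Its groups overlapped, and with the replicate block it was called (-0.85, adjusted p = 0.0235, edgeR), beside 0.533% of all genes.

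The other members with the lowest p were all lower. Zfp935 had 25.8, 26.5 and 21.9 CPM in WT and 15.4, 19.0 and 17.3 CPM in the mutant (log2 fold change -0.52), and Zfp945 had 20.0, 15.7 and 16.4 CPM and then 10.8, 13.6 and 12.2 CPM (-0.51). Zfp979 had a log2 fold change of -1.27, Zfp983 of -0.78, Zfp677 of -0.77 and Zfp946 of -0.64. In all but Zfp808 the 3 mutant values lay below the 3 WT values. Values did not overlap for 28 members, 26 of them lower, and for 13.8% of all genes, 7.4% being lower.

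Here, too, the difference lay among members poor in G and C. In the lowest GC class the median log2 fold change was -0.34 over 65 members (2 higher) and -0.08 over all genes, and in the other classes the members' medians lay between -0.05 and 0.09. The other Zfp genes of the lowest class had a median of -0.19. With the correction for GC content and length, the lowest class had medians of -0.23 over members and 0.01 over all genes. The median of all members relative to all genes was then -0.080, and 13 (9.56%), all lower, had an unadjusted p under 0.05, with 11.4% of all genes (5.88% lower). Members with a KRAB core had a median of -0.23 (47 of 55 lower) without the correction and -0.20 with it. The macrophage markers summed to 363 to 383 FPKM in WT and 207 to 337 FPKM in the mutant, and the skeletal muscle markers to 119 to 145 FPKM and 165 to 229 FPKM. The chondrocyte markers summed to 30.1 to 54.7 FPKM in WT and 63.9 to 77.4 FPKM in the mutant, and the fibroblast markers to 1390 to 1820 FPKM and 1120 to 1400 FPKM. The part of these cells in the result was not tested. Chaserr was at 34.6 to 41.8 CPM in the WT libraries of this set and at no more than 9.80 CPM in those of the other mEF sets.

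The difference between the 2 mutant effects was then tested directly, a comparison chosen after the data had been seen. The levels in WT mEFs of the 2 sets differed too. The median over members was 1.81 FPKM in WT of the Chaserr-/- set and 3.62 FPKM in WT of the Chaserr-/- Chd2m/m set. Over the 12 libraries of both sets, the Chaserr-/- effect minus the Chaserr-/- Chd2m/m effect had a median of 0.60 over 141 members and 0.01 over all genes. Zfp945 was called, with a difference of 1.38 on the log2 scale (adjusted p = 0.0324, edgeR), beside 0.112% of all genes. Without adjustment 71 members had a p under 0.05, 65 with the higher effect in Chaserr-/-, and 26.2% of all genes did. With the correction for GC content and length 0 members were called (0.0368% of all genes), 24 had an unadjusted p under 0.05, with 15.1% of all genes, and the median difference was 0.24. Of 136 members tested in both sets, 80 were higher in Chaserr-/- mEFs and lower in Chaserr-/- Chd2m/m mEFs, as were 3429 of 13310 genes. The rank correlation of the changes in the 2 sets was -0.491 over members and -0.009 over all genes, and 0.055 and 0.157 after the correction, and the 2 sets share no library.

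**Figure D4:**
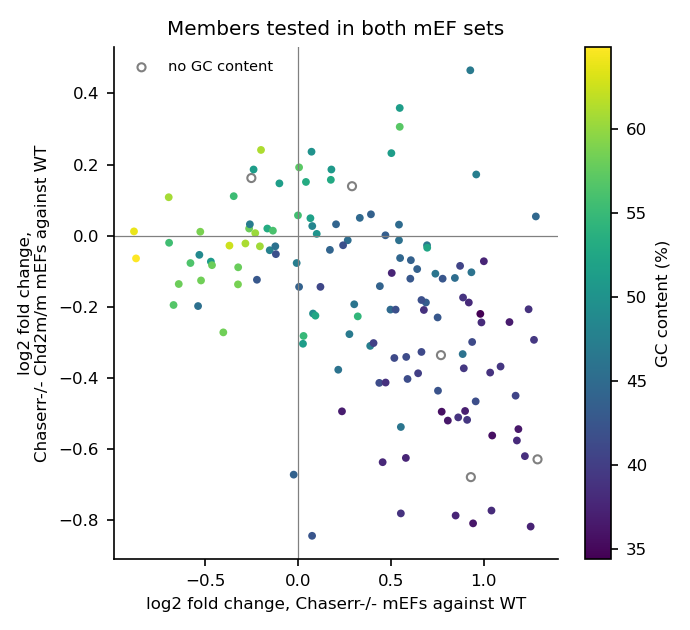
Log2 fold change of each of 136 members in Chaserr-/- mEFs (horizontal) and in Chaserr-/- Chd2m/m mEFs (vertical), each against its own WT, coloured by GC content (%), with members lacking a GC value as open circles. The lower right part, higher in the first and lower in the second, holds 80 members.

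The accessibility of promoters was read from ATAC-seq peaks of WT, Chaserr-/- and Chaserr-/- Chd2m/m mEFs, as the presence of a peak within 300 bases of a start site. In 10 of the 12 libraries, 69.9% to 71.9% of 153 members had such a peak, with 59.9% to 65.8% of all genes and 85.1% to 88.4% of the other Zfp genes. The other two libraries, WT replicate 2 of the Chaserr-/- Chd2m/m set and the first library of that mutant, had 53.6% and 60.1% of members and 36.4% and 45.7% of all genes. A peak was found in all 12 libraries for 74 members and in none for 43. In the Chaserr-/- set, it was 69.9% to 70.6% in WT and 70.6% to 71.9% in the mutant.

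In the CHD2 RIP, RNA of the members was recovered more than in IgG. Of 146 tested, 118 had higher values, and 33 (22.6%) passed the test, all 33 higher, with 11.5% of all genes called (11.1% higher). The titles tie each input to the RIP of its number, and with this number as a replicate block 62 members were called, 60 of them higher, beside 25.2% of all genes (18.2% higher). The median log2 fold change was 1.25 over members and 0.02 over all genes. The other Zfp genes had a median of 0.98 (55 of 210 called) and the Zbtb genes 1.17 (15 of 39), so such recovery was also seen in zinc finger genes outside Zfp600 to Zfp999. Members with a KRAB core had a median of 1.33 and those without one 1.16. A list of 25 genes held corepressors of KRAB proteins and their partners, histone genes included, and 23 were found. Of these 4 were called higher than IgG, Cbx5 (3.24), Uhrf1 (2.83), Morc3 (2.05) and Smarcad1 (1.40), beside 11.1% of all genes. Against the input 3 were called higher, Cbx5 (2.54), Atf7ip (1.79) and Mphosph8 (1.67), and 4 lower, H3f3b (-1.92), Hdac1 (-1.22), Trim28 (-1.22) and H3f3a (-1.15). Of all genes 15.1% were called against the input in either direction and 8.91% in the higher one. Marker RNA of other cell types was also present. Hepatocyte markers summed to 3290 to 5240 FPKM in IgG, 1650 to 2090 FPKM in the CHD2 RIP and 774 to 1320 FPKM in input. Macrophage markers summed to 473 to 672, 210 to 249 and 110 to 159 FPKM in the same order. Chondrocyte markers were higher in the CHD2 RIP, at 47.9 to 55.7 FPKM, than in IgG, at 21.8 to 22.7 FPKM. The part of such RNA in the recovery was not tested.

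Zfp871, a KRAB gene of chromosome 17 (32908181 to 32925232), had the lowest p among the members named. It had 713 and 897 CPM in the CHD2 RIP, 49.2 and 76.3 CPM in IgG and 35.1 and 56.7 CPM in the input, a log2 fold change over IgG of 3.68 (SE 0.406, adjusted p = 0.00606, edgeR). Zfp933 had 78.7 and 59.4 CPM in the RIP, 6.61 and 9.86 CPM in IgG and 5.33 and 5.71 CPM in the input (3.07, SE 0.357, adjusted p = 0.00631, edgeR). Both had fractional counts, in 35 and 45 libraries. Zfp655, with whole counts, had 129 and 94.0 CPM in the RIP and 16.2 and 19.9 CPM in IgG (2.62). In all 3 the RIP values lay far above both controls.

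Zfp704 had 263 and 361 CPM in the RIP and 45.6 and 67.6 CPM in IgG (log2 fold change 2.47). Zfp652, a transcriptional repressor, had 127 and 224 CPM against 26.9 and 34.5 CPM (2.52). Zfp609, which is related to Zfp608, had 373 and 394 CPM against 115 and 116 CPM (1.73). Zfp652 and Zfp609 have whole counts and GC contents of 51.0% and 51.2%, so that recovery was also seen in members outside the low-GC class. Zfp866 (1.93) and Zfp950 (2.07) complete the 8 with the lowest p. Zfp800 had a log2 fold change of 3.77, but its IgG libraries held 1.10 and 12 CPM, and Zfp948 (3.20), Zfp882 (3.08) and Zfp992 (3.03) also had unequal IgG values. Of the members with a known role, Zfp644 (1.85), Zfp668 (1.22) and Zfp830 (2.32) passed too, whereas Zfp703 (0.12), Zfp622 (-0.16) and Zfp664 (0.20), one of the most abundant members, did not.

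Recovery over IgG was larger in members than in all genes at each level of GC content. In the lowest GC class the median was 1.66 over 68 members and 0.79 over all genes, and in the highest class 0.47 and -0.32. With the correction for GC content and length, the median relative to all genes was 0.725, and it was 1.236 without it, and 19 of 141 members were called, 18 of them higher, with 9.39% of all genes. Zfp871 (2.60, adjusted p = 0.011) and Zfp652 (2.46, adjusted p = 0.0179) kept their call by edgeR, and Zfp950 (0.74, adjusted p = 0.241) did not. With only 2 libraries of each kind the test rests on every library, and the calls depended on which library was left out. Leaving out 1 library, the median relative to all genes lay between 1.013 and 1.473.

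Against the input, which shares the CHD2 libraries with the comparison above, 21 of 146 members (14.4%) were called, all higher, beside 15.1% of all genes in either direction and 8.91% in the higher one. With the replicate block 37 were called, all higher, beside 28.2% of all genes (17.9% higher). The median was 1.00 over members and 0.32 over all genes. Without the block 44 of 210 other Zfp genes and 17 of 39 Zbtb genes were called higher, with medians of 0.742 and 0.885. Zfp871 led the members named by fold change, with a log2 value of 4.13 (SE 0.415, adjusted p = 0.00457, edgeR). It was followed by Zfp933 (3.64), Zfp963 (3.38), Zfp950 (3.31), Zfp882 (2.96) and Zfp770 (2.95). Zfp963 had 13.3 and 21.0 CPM in the RIP and 0.941 and 2.30 CPM in the input, and Zfp770 had 103 and 46.9 CPM against 6.67 and 12.7 CPM. In these 6 both RIP values exceeded both input values. With the correction for GC content and length 12 members (8.51%) were called, all higher, with 10.1% of all genes (5.01% higher), and the median relative to all genes went from 0.674 to 0.336. Here, too, the calls depended on which library was left out, and the median relative to all genes then lay between 0.536 and 0.85.

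**Figure D5:**
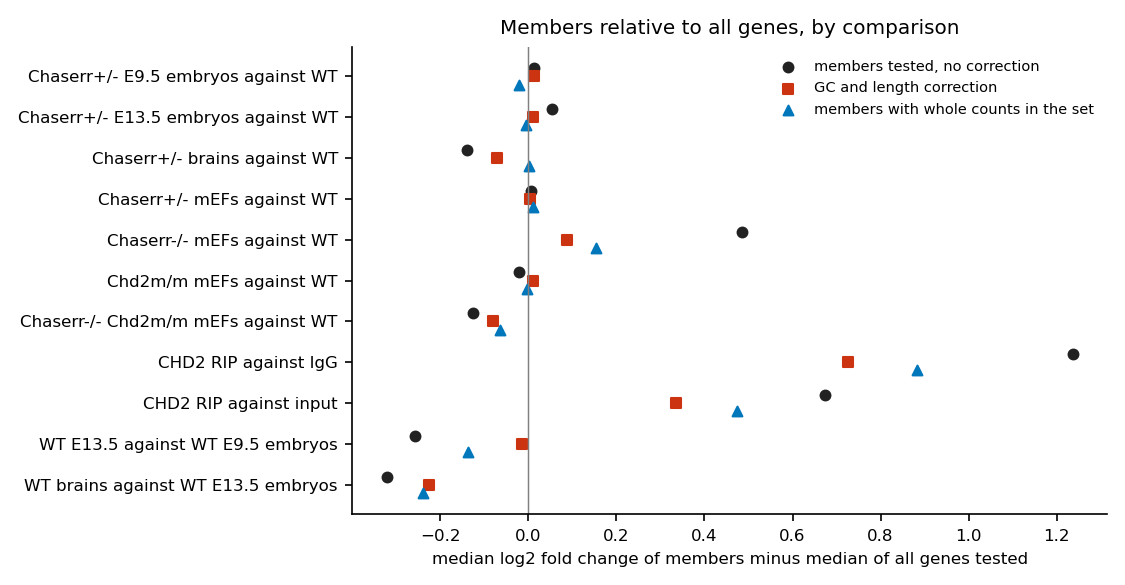
Median log2 fold change of members minus that of all genes tested, for each comparison, without correction (circles), with the correction for GC content and length (squares) and for members with whole counts in the libraries of that set (triangles). The uncorrected value was 0.486 in Chaserr-/- mEFs and 1.236 in the CHD2 RIP against IgG, and the corrected values were 0.089 and 0.725.

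Changes in Chaserr-/- mEFs and recovery in the CHD2 RIP over IgG, which come from separate libraries, were compared gene by gene. Of 133 members tested in both, 85 were higher in both. The rank correlation was 0.401 over members and 0.232 over all genes, and 0.045 and 0.066 after the correction in both. Zfp871, first by p among the members named in the RIP against IgG, was not among the 8 named in Chaserr-/- mEFs, and Zfp948 was named in both comparisons. The listed corepressors and partners had 0 called of 23 in each of the 7 mutant comparisons (edgeR), beside the shares of all genes given above. Their median was 0.08 in Chaserr-/- mEFs and 0.01 in Chaserr-/- Chd2m/m mEFs. Single genes differed more in Chaserr-/- mEFs. Those with the lowest p were, with log2 fold changes, Hdac2 (1.055), Atrx (0.938), Cbx3 (0.894), Mphosph8 (0.85), Morc3 (0.678), Cbx5 (0.53) and Atf7ip (-0.445). Their adjusted p lay between 0.0522 and 0.056 (edgeR), just short of the threshold.

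The tissue and mEF libraries held 9672637 to 33192002 counts and the RIP libraries 7621335 to 20050508. A median member had 456 counts in an E9.5 embryo library and 55 in a WT library of the Chaserr-/- set.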

How the data were processed

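Members were the rows whose symbol matched Zfp600 to Zfp999, and members and lists were chosen with earlier results of these data known. Another 15 rows with a transcript of a member, 3 joined with another gene and 12 extra copies, were left out. Per the labels and the methods, the authors quantified strand-specific reads with RSEM (processing notes also name Bowtie2 and MACS2, and the builds mm9 and mm10, without versions) and deposited 3 values per row, the expected count, the TPM and the FPKM, with no normalization between libraries. Dividing reads between near-identical genes can move counts from one member to another. For ATAC-seq the authors deposited MACS2 peaks called per library on mm9, with a score, a fold enrichment ratio, and the -log10 of p and q. Only peak positions were used, and changes in peak size were not analysed. TPM values were used only for an alternative count of expressed members, and the 4C experiments were not used here.

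Expected counts were rounded and tested by edgeR 4.0.16 (R 4.3.3) after filterByExpr and TMM scaling (quasi-likelihood test, adjusted p under 0.05 by Benjamini-Hochberg over all genes), each mutant against the 3 WT libraries of its set and the 6 RIP libraries in 1 fit. The labels do not say that replicates are separate animals or cultures in every set, so p-values may measure technical spread in part. CPM used TMM library sizes. A prior count of 2 entered only the log2 CPM behind the GC correction, the spread between replicates and the replicate correlations. Log2 fold changes came from the fits. GC content and positions came from GENCODE vM1 (mm9), matched for 153 members, 18 of them by an older symbol. The GC correction took from each library a lowess trend (span 0.3) as an offset. Repeats came from the coding models. Alternatives were DESeq2 1.42.0, its size factors, no filter, the GC correction with and without length, the replicate block, members with whole counts and leaving out each library. For the levels they were a TPM of at least 1 and a minimum of 0.5 FPKM. Replicate numbers of brains paired the samples (correlations 0.437 to 0.747), and replicate 3 was also another kit. Numbers of the RIP come from its titles (0.174 with IgG, 0.159 with the input), and those of Chd2m/m mEFs may be cross numbers (-0.0556 and 0.0931).

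Genes named were the 10 members with the highest mean WT FPKM, up to 6 called per direction by fold change, 8 with the lowest p in Chaserr-/- mEFs, Chaserr-/- Chd2m/m mEFs and the RIP against IgG (all with a mean of at least 1 FPKM in the higher group), 15 with a known role, and Chd2 and Chaserr. On simulated data with these depths, a log2 change of 1 in 200 genes was called for 70% in the Chaserr-/- comparison (13440 genes), 76.5% in the Chaserr-/- Chd2m/m one (13915 genes), 10.5% in brains (14705 genes) and 1% in the RIP against IgG (14641 genes). The simulated spread depended only on a gene's level, with no trend with GC content and no library that stood apart. These shares therefore do not tell what the test could call in the real libraries.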

Additional observations from a re-analysis of the deposited data

Results flagged for a closer look

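The Chaserr-/- effect minus the Chaserr-/- Chd2m/m effect of Zfp945 was 1.379 on the log2 scale (adjusted p = 0.0324, edgeR, 12 libraries), because its values were higher than WT in the 3 Chaserr-/- libraries and lower than WT in the 3 Chaserr-/- Chd2m/m libraries. By the CPM values given above, its levels in the 2 mutants overlapped, and its WT levels were higher in the Chaserr-/- Chd2m/m set. Zfp945 was the 1 member of 141 for which this difference of the 2 effects passed the test, and it did not pass with the correction for GC content and length. Zfp945 has a GC content of 39.0% and a fractional count in 21 of the 47 libraries.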

How the results depend on the processing

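Of the values over all members, 266 stayed within their limits under an alternative and 46 moved; of the values of single named genes 649 stayed, 31 passed and 67 lost the threshold, and none changed sign while called. In Chaserr-/- mEFs the count of members called was 15 with no filter on low counts, 31 with DESeq2 and 0 to 41 leaving out 1 library, and the median relative to all genes was 0.091 with the GC correction, 0.089 with GC and length, 0.153 for members with whole counts in that set and 0.242 to 0.548 leaving out 1 library. No paired analysis was possible because in that set mutants are numbered 1 to 3 and WT libraries 4 to 6. In Chd2m/m mEFs the replicate block called 1 member, the median was 0.015 with the block and both corrections, and -0.037 to 0.017 leaving out 1 library. In Chaserr-/- Chd2m/m mEFs 2 were called by DESeq2, 1 with the replicate block and 0 to 1 leaving out 1 library. In the RIP against IgG it was 57 with DESeq2, 19 with GC and length, 62 with the replicate block and 0 to 70 leaving out 1 library, and the medians were 0.887 (GC), 0.725 (GC and length), 0.81 (block, GC and length), 0.882 (whole counts) and 1.013 to 1.473 (1 library left out). Against input it was 12 with GC and length, 37 with the replicate block and 0 to 57 leaving out 1 library, with medians of 0.379 (GC), 0.336 (GC and length) and 0.345 (block, GC and length). In E13.5 against E9.5 the median was -0.351 with no filter, -0.001 (GC), -0.014 (GC and length), -0.013 (block, GC and length), -0.136 (whole counts) and -0.312 to -0.239 (1 library left out), and in brains against E13.5 47 to 106 were called, with medians of -0.509 to -0.237, leaving out 1 library. The median GC content was 43.1% by the longest transcript. In embryos and Chaserr+/- mEFs the samples shared only a number, and the block changed no count of members called against WT there or in brains. Where a count of members called stands here without the share of all genes, it shows only how the test depends on the setting. Leaving out libraries of a kit and the test between the mutant effects were chosen after seeing the data. The causes were not tested. A median member had 64 counts in a RIP input library, which limits what low members can show.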
